A study of Mus musculus with 5 samples.

Results

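The data compared here are the promoters occupied by REX1 and by wild-type RNF12 (RNF12 WT) in mouse embryonic stem cells (mESCs), taken from 1 list of chromatin immunoprecipitation (ChIP-seq) peaks for each protein. A protein-coding gene on chromosomes 1 to 19 or X was called a target of a list where the summit of at least 1 of its peaks lay within 1000 bp of any annotated transcription start site (TSS) of the gene. Of 21755 genes, 15946 (73.3%) were a target in at least 1 list: REX1 had 14678 targets (67.5% of all genes) and RNF12 WT had 14992 (68.9%). Of all genes, 13724 (63.1%) were targets in both lists, 954 (4.39%) in the REX1 list only, 1268 (5.83%) in the RNF12 WT list only and 5809 (26.7%) in neither.

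REX1, the product of *Zfp42*, is a zinc finger transcription factor of the YY1 family that marks pluripotent cells of the early mouse embryo. RNF12, the product of the X-linked *Rlim*, is a RING E3 ubiquitin ligase that ubiquitylates REX1 and so leads to its degradation by the proteasome, and both proteins are known for their part in X-chromosome inactivation. A protein recovered at a promoter by ChIP-seq may bind DNA itself or be held there by another protein.

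The REX1 library is labelled as coming from WT mESCs that carry FLAG-V5-tagged REX1, and its occupancy was described by the authors as determined in earlier work. The RNF12 WT library came from female F1 2-1 mESCs of a 129/Sv by Cast/Ei cross, *Rlim*+/-, in which a pCAG promoter drove 2xFLAG-V5-tagged RNF12 from a stable transgene selected with puromycin. Those cells received 15 μM MG132, a proteasome inhibitor, for 3 h before cross-linking with disuccinimidyl glutarate and formaldehyde, and the protein was recovered through its V5 tag. The RNF12 H569A,C572A library carried a RING mutant of the same tagged protein and was treated likewise, and it is used only where stated. Whether the REX1 cells received MG132 is not stated in the sources used here, so the protein, the line and the treatment cannot be told apart in any difference between the lists. There was 1 library per list, so no test between proteins was possible, and 95% Wilson intervals on shares cover counting error only. Peaks do not show transcripts, so the label of the cells could not be checked against marker expression.

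Each peak carries a fold enrichment over control, given by the authors' peak caller, which is the ratio of reads at the summit to the local expectation from the control. Because the lists may rest on different controls, fold enrichments were compared only within a list, as a rank (1 is the highest) or a percentile (100 is the highest) among its 95744 REX1 or 97272 RNF12 WT peaks on these chromosomes. Read depth is unknown. Of the REX1 peaks, 30244 (31.6%) had their summit at such a promoter, and of the RNF12 WT peaks 33368 (34.3%). Several peaks at 1 promoter were usual: 64.7% of REX1 targets and 67.6% of RNF12 WT targets had more than 1, and the strongest was used. Of REX1 targets 16.1% shared this strongest peak with another gene, for example across a divergent promoter, as did 15.6% of RNF12 WT targets, so genes are not independent of each other.

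Sequences at the summits are shown for some of the genes named below for their rank, because a short string was more frequent at REX1 than at RNF12 WT summits. They were read from GRCm38 (mm10) in the direction of the gene, 50 bases on each side of the summit, or 14 on each side where the window met a UTR or a coding exon. Capitals mark any match on either strand to AAGATGGC, the core of the YY1 site, or to ATGGCNGC, named here the REX1 string, whose first letters ATGGC are also the last letters of the YY1 core.
*Eif4a1*, both lists, REX1 summit, chr11:69672538-69672638, minus strand, outside annotated protein-coding genes: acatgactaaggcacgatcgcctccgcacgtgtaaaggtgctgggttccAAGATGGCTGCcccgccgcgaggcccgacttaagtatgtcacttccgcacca
*Wrb*, both lists, REX1 summit, chr16:96145144-96145244, plus strand, outside annotated protein-coding genes: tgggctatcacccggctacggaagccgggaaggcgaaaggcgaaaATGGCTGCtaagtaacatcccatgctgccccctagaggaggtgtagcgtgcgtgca
*Tmem80*, both lists, REX1 summit, chr7:141328229-141328257, plus strand, UTR: tggcggacccagcggcaaaATGGCGGCcg
*2610001J05Rik*, both lists, REX1 summit, chr6:13871447-13871475, minus strand, UTR: cctgctctccattcctgtaATGGCTGCtt
*Stk38l*, both lists, REX1 far higher in rank, REX1 summit, chr6:146724636-146724736, plus strand, outside annotated protein-coding genes: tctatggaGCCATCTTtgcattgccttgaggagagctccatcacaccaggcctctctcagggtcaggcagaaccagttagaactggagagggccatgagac
*Rmi2*, both lists, REX1 far higher in rank, REX1 summit, chr16:10835074-10835102, plus strand, UTR: gcggtggtggcgcagcATGGCGGCtgcgg
*Pclaf*, REX1 only, REX1 summit, chr9:65890506-65890606, plus strand, intron: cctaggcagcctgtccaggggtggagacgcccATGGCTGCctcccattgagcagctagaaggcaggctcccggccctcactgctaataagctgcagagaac
*Cacng5*, REX1 only, REX1 summit, chr11:107911572-107911672, minus strand, intron: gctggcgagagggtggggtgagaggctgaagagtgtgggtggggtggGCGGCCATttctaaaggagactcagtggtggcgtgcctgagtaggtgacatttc
*Zkscan5*, REX1 only, REX1 summit, chr5:145204455-145204555, plus strand, outside annotated protein-coding genes: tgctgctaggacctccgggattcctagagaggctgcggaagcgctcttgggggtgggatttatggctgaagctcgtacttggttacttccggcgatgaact
*Tep1*, both lists, RNF12 WT far higher in rank, RNF12 WT summit, chr14:50870304-50870404, minus strand, intron: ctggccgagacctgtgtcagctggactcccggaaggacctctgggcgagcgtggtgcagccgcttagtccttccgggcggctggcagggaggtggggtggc
*Cenpu*, both lists, RNF12 WT far higher in rank, RNF12 WT summit, chr8:46551817-46551917, plus strand, outside annotated protein-coding genes: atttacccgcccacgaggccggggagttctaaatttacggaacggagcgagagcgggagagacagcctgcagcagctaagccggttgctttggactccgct
*Ly96*, RNF12 WT only, RNF12 WT summit, chr1:16688648-16688748, plus strand, intron: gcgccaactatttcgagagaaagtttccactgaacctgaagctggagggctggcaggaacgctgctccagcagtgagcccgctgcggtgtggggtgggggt
*Erc2*, RNF12 WT only, RNF12 WT summit, chr14:27622292-27622392, plus strand, outside annotated protein-coding genes: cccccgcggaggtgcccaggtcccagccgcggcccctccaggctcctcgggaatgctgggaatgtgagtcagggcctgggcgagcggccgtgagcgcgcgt
*Psmd9*, RNF12 WT only, RNF12 WT summit, chr5:123228239-123228267, plus strand, UTR: gacccgtagcctcagcctcggctggcgtc

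With the whole window of 50 bases on each side searched, 12 of the 16 genes named for a high REX1 rank held such a match at the REX1 summit. Of the 16 genes named for a high RNF12 WT rank, 4 held one at the RNF12 WT summit: *Eif4a1*, *Wrb*, *Tmem80* and *2610001J05Rik*, which are among the 6 genes named for a high rank in both lists and whose summits of both proteins lie close together. These genes were chosen for rank and some are shown because they hold a match, so the counts over all strongest peaks are given next, each peak counted once. At genes in both lists, the REX1 string lay in 1714 of 12557 windows at REX1 summits (13.6%, interval 13.1% to 14.3%), against 1.35% of windows of the same length 250 to 350 bp away. At REX1-only genes it lay in 69 of 927 windows (7.44%, 5.92% to 9.31%), against 0.485% of flanks. At RNF12 WT summits the share was 5.43% (5.04% to 5.84%, flanks 1.88%) for genes in both lists and 1.77% (1.17% to 2.67%, flanks 1.57%) for RNF12 WT-only genes. The string was thus above its flanks in the first 3 of these sets, while at RNF12 WT-only genes the flank share lay within the interval. The YY1 core gave the same order, with 4.68%, 2.05%, 1.77% and 0.645% in turn, against 0.585% to 0.676% of flanks. In the promoter windows of 300 bases described below, the REX1 string lay in 6.84% and the YY1 core in 3.19% of all genes.

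The share with the REX1 string was higher at stronger REX1 peaks, with and without an RNF12 WT peak at the gene. From the lowest to the highest decile of REX1 strongest peaks by fold enrichment, it went from 4.22% (3.21% to 5.54%) to 39.2% (36.6% to 41.8%) at genes in both lists. At REX1-only genes it went from 3.93% (1.92% to 7.89%) to 38.5%, the latter being 10 of 26 windows with an interval of 22.4% to 57.5%, and the intervals of both classes overlapped in each decile. Among genes in both lists, those with the string at the REX1 summit had a median REX1 percentile of 92.7 and a median RNF12 WT percentile of 86.7. Those without it had medians of 75.2 and 81.5. A match describes letters in a window and does not show that a factor bound there.

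**Figure D1:**
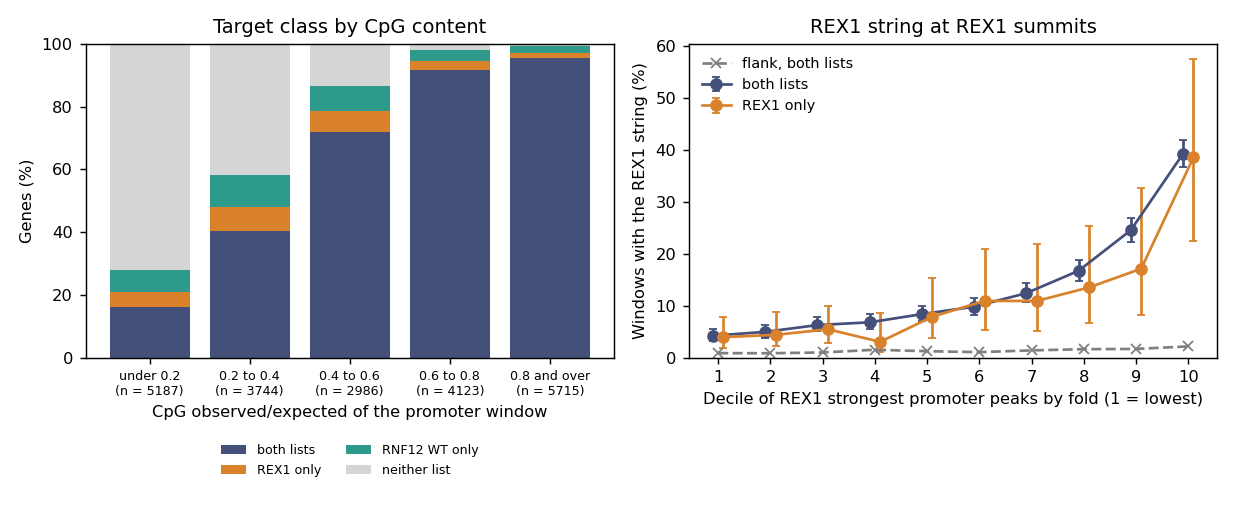
Left, the share of genes in each target class (y axis, %) by the CpG observed/expected ratio of the promoter window (x axis, n genes per bar). Right, the share of windows at REX1 summits that hold the REX1 string (y axis, %) by decile of REX1 fold enrichment (x axis), with 95% Wilson intervals, for genes in both lists (from 4.22% to 39.2%) and REX1-only genes, with the flank share of genes in both lists as crosses.

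Promoters targeted in both lists were rich in CpG, the dinucleotide that marks CpG island promoters of broadly expressed genes. In the 300 bases from 250 before to 50 after 1 start per gene, the median CpG observed/expected ratio was 0.735 (quartiles 0.514 and 0.894) at genes in both lists. It was 0.355 at REX1-only genes, 0.328 at RNF12 WT-only genes and 0.143 at genes in neither, beside 0.536 over all genes. The median GC content was 60.3%, 52.7%, 53.7% and 44.7% in turn. Of the 5715 genes with a ratio of at least 0.8, 95.4% were targets in both lists and 0.542% in neither, and of the 5187 genes under 0.2, 16.3% and 72.1% were. Sharing followed as well: 98.2% (97.8% to 98.5%) of REX1 targets with a ratio of at least 0.8 were RNF12 WT targets, and 77.5% (74.9% to 79.8%) of those under 0.2. In the other direction the shares were 97.6% (97.2% to 98%) and 70.5% (67.8% to 73%). Over all genes with a ratio of at least 0.8, 5585 of 5715 were RNF12 WT targets and 5552 were REX1 targets. Sharing there was close to the share of all genes. Under 0.2, 1199 of 5187 genes were RNF12 WT targets and 1091 were REX1 targets, well below the shares among targets of the other list. Both single-list classes thus sat between the shared promoters and the untargeted ones in base composition, with medians close to each other.

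Of 7 further strings known from promoters, some were most frequent in promoters of both lists and some were not, counted on both strands of the same 300 bases. GGGCGGGG, a site of SP and KLF factors, lay in 31.5% of promoters in both lists, 16.7% of REX1-only, 15.6% of RNF12 WT-only and 2.27% of untargeted promoters, beside 22.1% of all promoters. CCGGAAGT, a site of ETS factors, lay in 6.94%, 2.41%, 2.92% and 0.861%, beside 4.88% of all. GCGCATGC, from the site of NRF1, lay in 4.85%, 2.2%, 1.66% and 0.379%, beside 3.35% of all. TATAAAA ran the other way, with 2.49% of promoters in both lists, 5.24% of REX1-only, 5.76% of RNF12 WT-only and 10.4% of untargeted promoters, beside 4.92% of all. CCAATCA, of the CCAAT box, lay in 9.44%, 9.96%, 9.07% and 6.68%, beside 8.7% of all, with overlapping intervals in the 3 targeted classes. The palindromes TGACGTCA, of the cAMP response element, and CACGTG, the E-box, were also counted. TGACGTCA lay in 3.07%, 2.41%, 1.5% and 1.17%, beside 2.44% of all, and CACGTG in 9.99%, 7.44%, 5.13% and 3.05%, beside 7.74% of all. The 4 strings printed first, from GGGCGGGG to TATAAAA, share at most 2 letters where their ends can meet. Intervals of the REX1-only and RNF12 WT-only shares overlapped for each of the 7 strings.

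By gene, 93.5% (93.1% to 93.9%) of REX1 targets were RNF12 WT targets, and 91.5% (91.1% to 92%) of RNF12 WT targets were REX1 targets. These shares depend on the length of the lists: with the 20000 peaks of highest −log10 q from each, 5264 genes were in both, 68.6% of REX1 targets and 59.9% of RNF12 WT targets. Within the full lists, stronger peaks were shared more often. Of the lowest decile of REX1 targets by fold enrichment 87.1% (85.3% to 88.7%) were RNF12 WT targets, and of the highest decile 98.2% (97.4% to 98.8%). For RNF12 WT targets the share went from 80.3% (78.3% to 82.3%) to 97.7% (96.8% to 98.4%). Even so, 26 of the 1471 genes in the highest REX1 decile were not RNF12 WT targets, and 34 of the 1497 in the highest RNF12 WT decile were not REX1 targets.

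**Figure D2:**
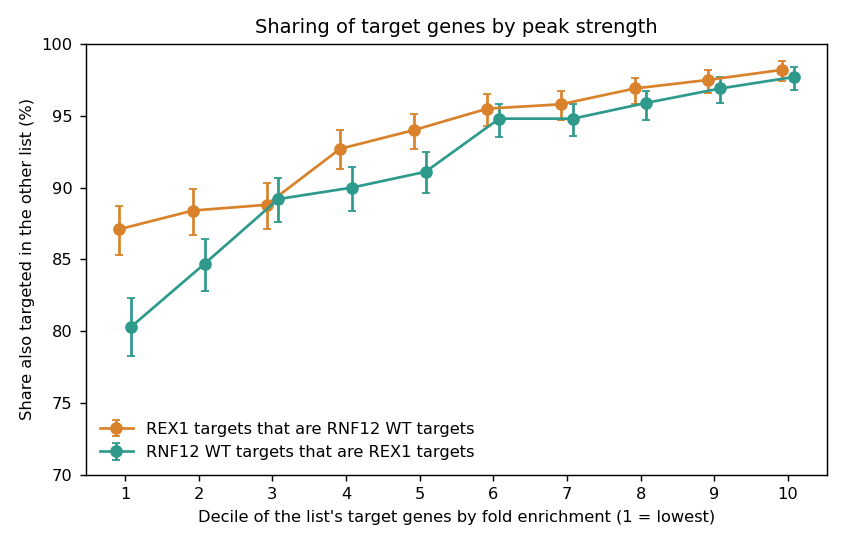
Share of target genes that were also targets in the other list (y axis, %, from 70 upward) by decile of fold enrichment within the list (x axis, 1 is the lowest), with 95% Wilson intervals. Both lines climb from the lowest decile (87.1% for REX1 targets, 80.3% for RNF12 WT targets) to the highest (98.2% and 97.7%).

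The ranks of the shared promoters were compared next. Over the 13724 genes in both lists, Spearman's rho between the REX1 and RNF12 WT fold enrichments of the strongest promoter peaks was 0.227, a description across genes that share peaks, base composition and chromatin. It was 0.22 with 1 gene per pair of peaks (n = 12711) and 0.2 at the 1708 genes with 1 TSS. It hardly differed between genes whose strongest peaks overlapped (0.221, n = 7699) and genes whose strongest peaks did not (0.214, n = 6025). When −log10 q served to choose and rank the peaks, rho was 0.309. Of the genes in the highest decile, 322 were there in both lists, 21.9% of the REX1 and 21.5% of the RNF12 WT genes. These deciles held 1471 of the 14678 REX1 targets and 1497 of the 14992 RNF12 WT targets. At the 13204 of these genes that were also targets of RNF12 H569A,C572A, rho was 0.216 for REX1 with RNF12 WT, 0.245 for REX1 with the mutant and 0.337 for RNF12 WT with the mutant.

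**Figure D3:**
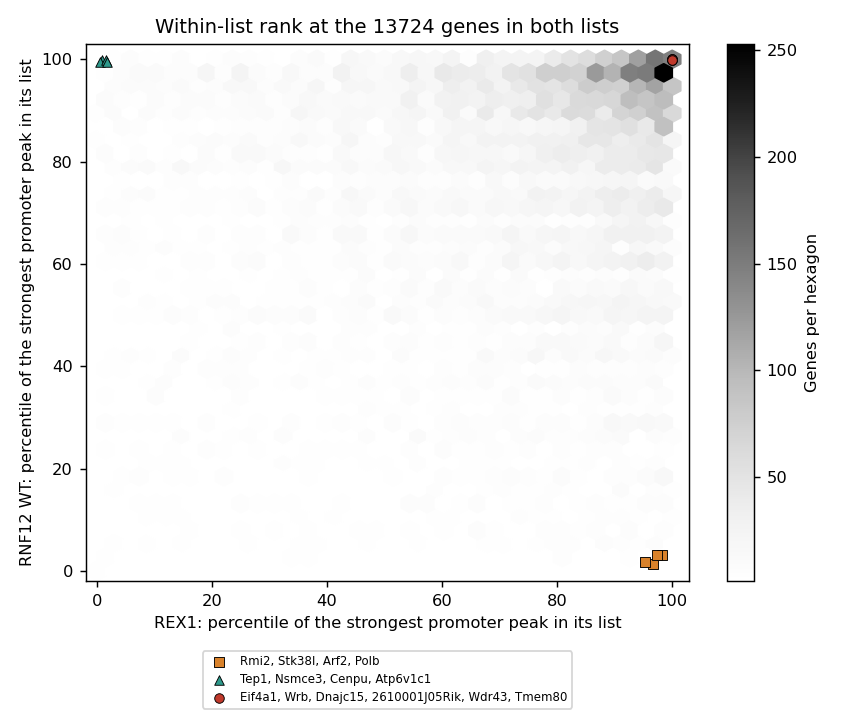
Percentile of the strongest promoter peak in the REX1 list (x axis) and in the RNF12 WT list (y axis) at the 13724 genes in both lists, as genes per hexagon (grey scale). The named genes with the highest mean percentile (circles) lie at 99.9 or above on both axes, and those with the largest differences (squares, triangles) lie in the opposite corners.

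At the 6 genes with the highest mean percentile the summits of both proteins lay close together. *Wrb*, which encodes a receptor for insertion of tail-anchored proteins into the endoplasmic reticulum, had the highest REX1 fold enrichment of all peaks (45.9, rank 1) and an RNF12 WT fold enrichment of 13.1 (rank 56), with summits 11 bp apart. *Eif4a1*, the RNA helicase of the translation initiation factor eIF4F, had a REX1 fold enrichment of 35.6 (rank 12) and an RNF12 WT fold enrichment of 13.7 (rank 41), with summits 12 bp apart. *Tmem80*, encoding a transmembrane protein, had values of 40.7 (rank 6) and 11.9 (rank 144), and its REX1 peak is also the strongest one of *Deaf1*, a transcription factor gene.
*Dnajc15*, a mitochondrial J-domain co-chaperone, had 30.4 (rank 33) and 13.2 (rank 53). *Wdr43*, a ribosome biogenesis factor, had 22.7 (rank 122) and 17.4 (rank 9). The uncharacterised *2610001J05Rik* had 23 (rank 111) and 19.3 (rank 3). In these 6 genes the strongest summits of REX1 and RNF12 WT were 11 to 65 bp apart.

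At 8 genes both proteins were listed but at opposite ends of their ranks. *Rmi2*, a subunit of the BLM helicase complex, had a REX1 fold enrichment of 9.97 (percentile 96.7) and an RNF12 WT fold enrichment of 2.39 (percentile 1.27), with summits 147 bp apart. *Polb*, the DNA polymerase of base excision repair, had 8.93 (95.2) and 2.51 (1.77), with summits 10 bp apart. The kinase gene *Stk38l* had 12 (98.3) and 2.67 (3.06), with summits 557 bp apart, and the small GTPase gene *Arf2* had 10.7 (97.4) and 2.67 (3.06), with summits 280 bp apart.
In the other direction, *Tep1*, encoding a protein of telomerase and vault particles, had a REX1 fold enrichment of 2.4 (percentile 0.953) and an RNF12 WT fold enrichment of 12.6 (percentile 99.9), with summits 1 bp apart. *Nsmce3*, a subunit of the SMC5/6 complex, had 2.27 (0.451) and 10.1 (99.4), with summits 8 bp apart. *Cenpu*, a centromere protein gene, had 2.52 (1.55) and 11.9 (99.8), with summits 45 bp apart, and *Atp6v1c1*, a subunit of the vacuolar proton pump, had 2.59 (1.69) and 10.1 (99.4), with summits 28 bp apart. All 8 were also targets of RNF12 H569A,C572A, as were 96.2% of all genes in both lists. Their percentiles in the mutant list went from 74.7 to 98.2.

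Among REX1-only genes the highest fold enrichments were at genes of mixed function. *Cacng5*, encoding an auxiliary subunit of glutamate receptors, had a REX1 fold enrichment of 24 (rank 90), with the nearest RNF12 WT summit 1554 bp from a TSS. *Zmat2*, a splicing factor gene, had 17.3 (rank 400), and *Pclaf*, encoding a factor that binds PCNA, had 15.2 (rank 647), with the nearest RNF12 WT summits 5931 and 5173 bp from a TSS.
*E230025N22Rik* had 14.6 (rank 778), the sperm-related *Spata31d1b* 13.6 (rank 1067) and the zinc finger gene *Zkscan5* 13.6 (rank 1071), with RNF12 WT summits 1289 to 1831 bp away. Of these 6 genes, *Cacng5* and *Zkscan5* were targets of RNF12 H569A,C572A, beside 45.3% of all REX1-only genes. In both, the mutant summit (chr11:107914976 and chr5:145208461) lay at another TSS than the REX1 summit (chr11:107911622 and chr5:145204505).

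Among RNF12 WT-only genes the highest was *Psmd9*, encoding an assembly chaperone of the proteasome, with a fold enrichment of 11.4 (rank 222) and a REX1 summit 1269 bp from a TSS, just beyond the limit. *Rad54b*, a recombination gene, had 11.2 (rank 256), and *Scg2*, a neuroendocrine secretory granule gene, had 10.8 (rank 340). *Ly96*, the co-receptor of TLR4, had 10.1 (rank 562), the presynaptic scaffold gene *Erc2* 10 (rank 622) and *Dph6*, of diphthamide synthesis, 9.69 (rank 719), a value tied with that of the zinc finger gene *Zfp879*. The nearest REX1 summits of the latter 5 were 7442 to 58955 bp from a TSS. All but *Scg2* were targets of RNF12 H569A,C572A, beside 59.6% of all RNF12 WT-only genes.

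The strongest peaks of single-list genes were weaker, narrower and farther from the TSS than those of genes in both lists. Genes in both lists had a median of 2 promoter peaks in either list and 4 TSSs, against 1 and 3 at single-list genes, so their strongest peak is a maximum over more peaks. The median REX1 fold enrichment was 5.82 (quartiles 4.66 and 7.6) at genes in both lists and 4.7 (3.91 and 5.69) at REX1-only genes. That of RNF12 WT was 6 (4.99 and 7.18) at genes in both lists and 4.95 (4.15 and 5.86) at RNF12 WT-only genes. REX1 peaks had a median width of 266 bp at genes in both lists and 160 bp at REX1-only genes, and RNF12 WT peaks of 224 and 133 bp. The median distance of the summit to the nearest TSS was 113 bp for REX1 at genes in both lists and 189 bp at REX1-only genes. For RNF12 WT it was 129 and 170 bp. At genes with exactly 1 promoter peak in the list, a restriction chosen after seeing the data, the median REX1 fold enrichment was 5.29 (n = 4528) at genes in both lists and 4.47 (n = 646) at REX1-only genes. That of RNF12 WT was 5.39 (n = 3993) and 4.58 (n = 866). At RNF12 WT-only genes 65.3% of summits lay downstream of the TSS, against 55.2% at genes in both lists, and at REX1-only genes 61.9%, against 56.4%. Of RNF12 WT-only summits 31.3% (28.8% to 33.9%) lay in a coding exon, against 20.9% (20.2% to 21.6%). At REX1-only genes 22.5% (20% to 25.3%) lay in a coding exon, against 20.6% (19.9% to 21.3%), and these intervals overlap.

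**Figure D4:**
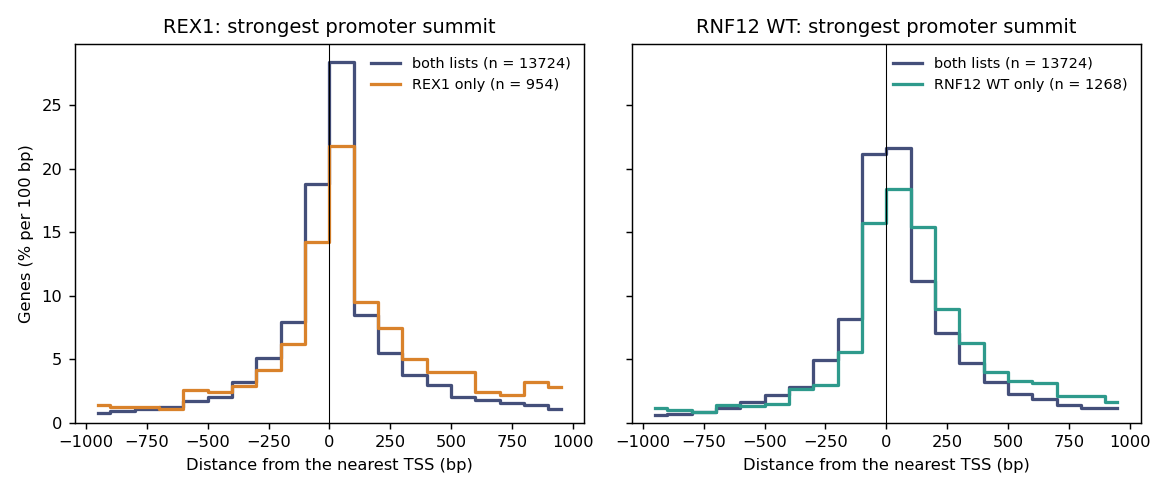
Distance of the strongest promoter summit from the nearest TSS of the gene (x axis, bp, negative is upstream) as the share of genes per 100 bp (y axis, %), for REX1 (left) and RNF12 WT (right). Lines show genes in both lists and in 1 list only; all peak beside the TSS, and 65.3% of summits at RNF12 WT-only genes and 61.9% at REX1-only genes lie downstream of it.

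Where both proteins were listed, they were usually listed at the same site. At 93.7% (93.3% to 94.1%) of the genes in both lists at least 1 REX1 promoter peak overlapped an RNF12 WT promoter peak, and at 75.3% (74.6% to 76%) the nearest summits were within 100 bp, with a median of 44 bp. The strongest peaks coincided less often: 56.1% (55.3% to 56.9%) overlapped, and their summits were a median of 222 bp apart. A peak of the other list that reached into the 1000 bp without its summit was rare. It was found at 28 of the 954 REX1-only genes for an RNF12 WT peak and at 21 of the 1268 RNF12 WT-only genes for a REX1 peak. A summit of the other protein lay between 1 and 3 kb from a TSS at 28.2% (25.4% to 31.1%) of REX1-only and 26.8% (24.4% to 29.3%) of RNF12 WT-only genes. Just inside the limit, at 900 to 1000 bp, were 82 REX1 targets with a median fold enrichment of 4.41, and just outside it, at 1001 to 1100 bp, 51 genes with 4.47. For RNF12 WT these were 77 genes with 4.59 and 72 with 4.84.

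Chromosome 12 stood apart. Chromosome 10 had the next lowest share of REX1 targets that were RNF12 WT targets, but its interval overlapped those of others, such as the X chromosome (88% to 93.1%). On chromosome 12, 101 genes were REX1 only and 8 RNF12 WT only, and 80.7% (77.1% to 83.9%) of REX1 targets were RNF12 WT targets, against 88.7% (86.2% to 90.8%) on chromosome 10 and 90.9% to 95.5% on the others. Together these 2 chromosomes held 7.65% of genes and 182 (19.1%) of the REX1-only genes. Without them, 94.3% of REX1 targets were RNF12 WT targets and 91.2% of RNF12 WT targets were REX1 targets. The X chromosome had the lowest share of targets, with 50.9% of 948 genes for REX1 and 53.1% for RNF12 WT. RNF12 H569A,C572A had 14738 targets (67.7% of all genes), which took in 96.2% of genes in both lists, 59.6% (56.9% to 62.3%) of RNF12 WT-only and 45.3% (42.1% to 48.5%) of REX1-only genes, beside 5.96% of genes in neither. For REX1-only genes the share was 37.6% (34.2% to 41%) without chromosomes 10 and 12.

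Genes of REX1 and RNF12 biology are given next, beside the 63.1% of all genes that were in both lists, and the shortest lists are too small to be set against that share. *Rlim* itself had a REX1 fold enrichment of 11.2 (percentile 97.8) and an RNF12 WT fold enrichment of 4.79 (percentile 53.9). Of its neighbours around the X inactivation centre, 3 targets in both lists are given. *Chic1* had 11.1 (97.7) and 10.1 (99.4), *Nap1l2* 7.74 (92) and 5.58 (74.3), and the homeobox gene *Cdx4* 5.17 (68) and 4.99 (60.7). *Zfp42*, the gene of REX1, was a REX1-only target with a fold enrichment of 6.42 (85), 7 bp upstream of a TSS, and was a target of RNF12 H569A,C572A. Its relatives *Yy1* (2.85, percentile 4.37, and 3.99, percentile 28.8) and *Yy2* (7.4, 90.7, and 4.71, 52) were targets in both. Of 8 cofactors and substrates of RNF12, 7 (87.5%, beside 63.1% of all genes) were targets in both lists, with the RNF12 WT percentile between 13.9 at the ligase gene *Smurf2* and 97.4 at *Ldb1*, the LIM-domain binding cofactor. Only *Ldb2* was in neither.

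Of 17 pluripotency factors 12 (70.6%) were targets in both lists, beside 63.1% of all genes. *Pou5f1* (OCT4) had a REX1 fold enrichment of 19.7 (percentile 99.8) and an RNF12 WT fold enrichment of 6.04 (83.7). *Tbx3* had 11.3 (97.8) and 6.96 (92.8), *Klf4* 8.43 (94.2) and 5.22 (66.5), *Nr0b1* 8.6 (94.4) and 6.17 (85.3). *Sox2* ranked the other way, with 3.83 (27) and 6 (82.8), as did *Sall4*, with 5.1 (66.9) and 7.38 (95).
*Nanog* (5.89, percentile 80) and *Dppa2* (7.51, percentile 91.1) were REX1-only targets, *Prdm14* an RNF12 WT-only target (5.66, percentile 77.7), and *Dppa3* and *Dppa4* were in neither list. The other 6 factors were targets in both, with REX1 percentiles from 6.11 to 80.1 and RNF12 WT percentiles from 26.7 to 83.5. Of these, *Nr5a2*, *Klf2*, *Klf5* and *Esrrb* had the higher percentile for RNF12 WT, and *Tfcp2l1* and *Stat3* for REX1, so that each protein had the higher one at 6 of the 12 factors.

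Germline and neuronal genes belong to programmes known to be controlled by RNF12. Of 16 germline genes 13 (81.2%, beside 63.1% of all genes) were targets in both lists. The highest by mean percentile was *Ddx4* (VASA), an RNA helicase of germ cells, with a REX1 fold enrichment of 11.6 (98.1) and an RNF12 WT fold enrichment of 9.08 (98.9). *Rpl10l* had 18.3 (99.7) and 6.41 (88.6), and *Taf7l* 13.2 (98.7) and 7.16 (94), while *Tdrd1*, of the piRNA pathway, was high for REX1 (6.54, 85.8) and at the bottom for RNF12 WT (2.51, 1.77). *Stra8*, the meiotic inducer, was REX1 only (3.16, 9.01), and *Asz1* (6.12, 84.6) and *Tex101* (5.18, 65.2) were RNF12 WT only. The other 9, *Mael*, *Slc25a31*, *Hormad1*, *Sycp1*, *Sycp3*, *Mov10l1*, *Dazl*, *Dmrt1* and *Usp26*, had REX1 percentiles from 15.8 to 97.5 and RNF12 WT percentiles from 50 to 96.2.
All 10 neuronal genes were in both lists, beside 63.1% of all genes. The synaptic vesicle gene *Syn1* had 7.96 (92.8) and 10.7 (99.6), *Stmn2* 14 (99) and 7.11 (93.6), and the Notch ligand gene *Dll1* 6.46 (85.3) and 7.17 (94.1). The other 7 (*Map2*, *Kif1a*, *Kif5c*, *Snap25*, *Unc13a*, *Rbfox3*, *Nefl*) had REX1 percentiles from 56 to 83.8 and RNF12 WT percentiles from 27.8 to 93.6.

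Larger groups ran from wholly shared to almost untargeted. Genes of basic cell functions were in both lists at 85.2% to 100% of each group, beside 63.1% of all genes. These were 36 of 36 complex I subunits of the respiratory chain, 75 of 78 mitochondrial ribosomal proteins, 32 of 34 proteasome subunits, 63 of 67 histone genes, 68 of 73 genes of RNA polymerase II, Mediator and general factors and 76 of 83 cytosolic ribosomal proteins. Of 54 genes named as translation initiation factors 46 (85.2%) were in both lists, 1 REX1 only, 4 RNF12 WT only and 3 in neither. *Mrpl40*, of the mitochondrial ribosome, had a REX1 fold enrichment of 20.2 (percentile 99.8) and an RNF12 WT fold enrichment of 14.8 (percentile 100). *Rpl13a* had 17.6 (99.6) and 10.4 (99.5), *Psma2* 13.4 (98.8) and 9.72 (99.3), and *Med13*, of the Mediator complex, 20.1 (99.8) and 14.5 (100). Exceptions were few, such as *Psmd10* (REX1 only, 11.1, 97.7) and *Rpl39l* (RNF12 WT only, 8.21, 97.6).
The median REX1 percentile over targets was 89.7 for mitochondrial ribosomal proteins, 89.5 for complex I, 86.1 for the proteasome and 78.6 for cytosolic ribosomal proteins. It was 89.5 for translation initiation factors, 80.5 for histone genes and 78.4 for RNA polymerase II, Mediator and general factors, beside 77.5 over all REX1 targets. The RNF12 WT medians of these 7 groups were 89, 86.9, 90.5, 74.5, 86.9, 86.8 and 79.1 in turn, beside 81 over all RNF12 WT targets. Cytosolic ribosomal proteins and the RNA polymerase II group lay below it.

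Developmental regulators, many of which are known to be held silent by Polycomb in mESCs, were listed at similar shares. Their expression was not measured here. Of 39 Hox genes 37 (94.9%, beside 63.1% of all genes) were in both lists, but with a lower median REX1 percentile (68) than RNF12 WT percentile (81.3). Of 107 homeobox, forkhead and GATA genes 93 (86.9%) were in both lists, 7 REX1 only and 3 RNF12 WT only. Of 391 genes named Zfp with a number 303 (77.5%) were in both lists, 39 (beside 4.39% of all genes) REX1 only and 19 (beside 5.83%) RNF12 WT only. *Zfp40* was the highest of them, with 22.8 (99.9) and 11.9 (99.9). Of 82 genes named Rnf with a number 73 (89%) were in both lists, and of 31 E2 ubiquitin-conjugating enzymes 28 (90.3%), beside the same 63.1%.

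Clustered and sensory gene families were listed least, where over all genes 63.1% were in both lists, 4.39% REX1 only, 5.83% RNF12 WT only and 26.7% in neither. Of 57 clustered protocadherins, the cell adhesion genes of neuronal identity, 18 were in both lists, 12 REX1 only, 3 RNF12 WT only and 24 in neither. Of 1135 olfactory receptor genes 8 (0.705%) were in both lists and 1087 in neither, and of 331 vomeronasal receptor genes 1 was in both. Of 110 keratin and keratin-associated protein genes 18 were in both, 14 REX1 only and 34 RNF12 WT only. How reads of near-identical copies in these families were placed is not given in the sources used here.

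**Figure D5:**
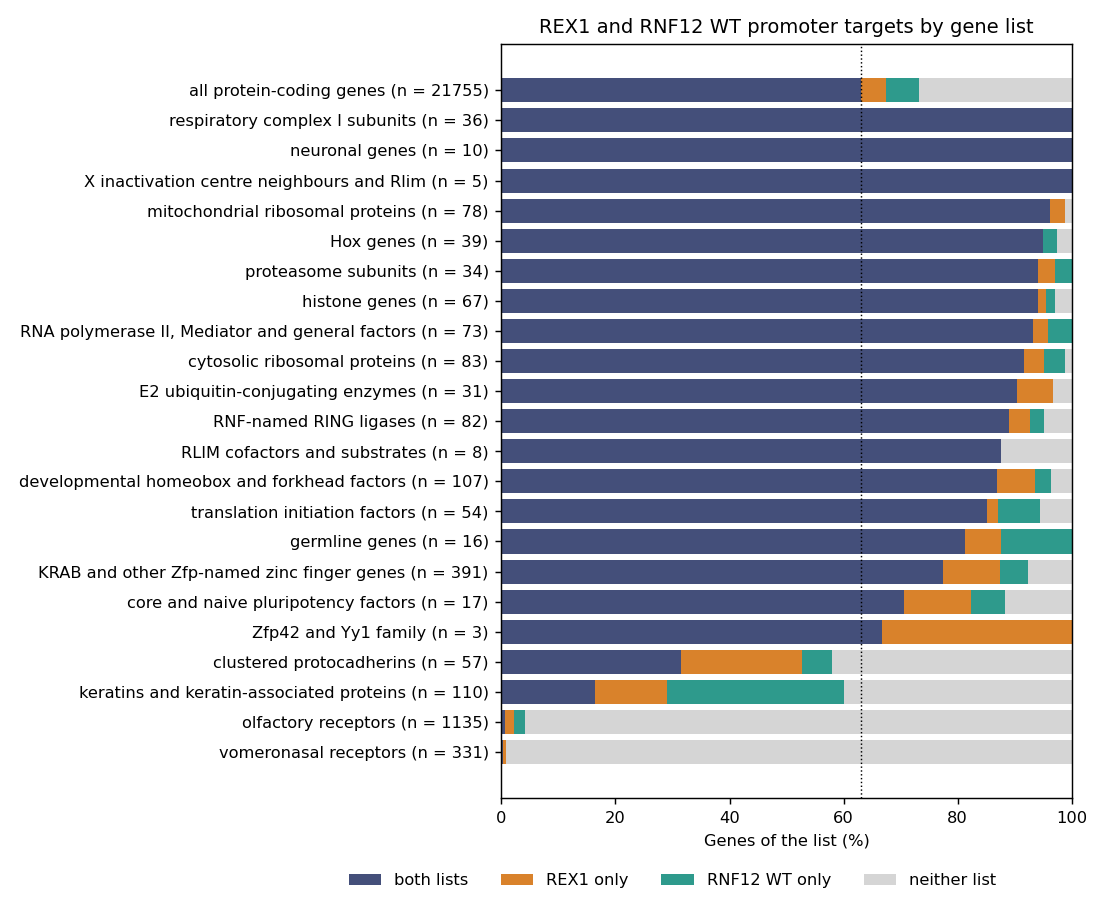
Share of genes (x axis, %) in each target class for each gene list and for all protein-coding genes (y axis, n genes), with a dotted line at the 63.1% of all genes that were in both lists. Complex I subunits and neuronal genes are wholly in both lists, and 8 of 1135 olfactory receptors are.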

How the data were processed

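ChIP-seq in mESCs profiled V5-tagged REX1, V5-tagged RNF12 WT and its mutant RNF12 H569A,C572A, 1 library each, and 2 input libraries were not analysed here. Per the study's methods, the authors trimmed reads with Trim Galore 0.6.7, aligned them with Bowtie2 2.5.0 to mm10 masked at parental variants, merged the alleles with SAMtools 1.10 and called peaks per library with MACS2 2.2.7.1 in narrow mode. The deposited lists hold, per peak, a fold enrichment (a ratio to the control), −log10 p and −log10 q, a score that was not used and the offset of the summit. The smallest −log10 q is 1.31. Which control stands behind each list is not given in the sources used here, and the lists give no read depth.

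From these, target genes were called against the 93196 TSS positions of protein-coding genes in GENCODE release M21 on 20 chromosomes. Shares carry 95% Wilson intervals, and Spearman's rho across genes is given without a test. Promoter sequence was read around the start used by most transcripts of a gene. The target calls, classes and rank correlation were tested on simulated lists with at most 1 peak per gene, at genes far from others. The choice among several peaks and peaks shared between genes were not covered by it. Named genes were the 6 highest by mean percentile in both lists, the 6 highest by fold enrichment in each single-list class, the 4 with the largest percentile difference each way, the members of 6 short lists, and the extremes of the larger lists, of which some are printed and 1 gene is not reported here. Members and gene lists were chosen with earlier results of these data known. Alternatives covered the −log10 q threshold, list length, distance, use of edges, TSS annotation, overlap and ranking, and the exclusion of chromosomes 10 and 12. Python 3.11.15, numpy 2.4.6, pandas 2.3.3, scipy 1.17.1 and matplotlib 3.10.9 were used.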

Additional observations from a re-analysis of the deposited data

How the results depend on the processing

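Of the counts of genes, each stayed within 1.5 times its value under 8 of 9 alternatives. With the 20000 peaks of highest −log10 q per list, there were 7675 REX1 targets, 8791 RNF12 WT targets and 5264 genes in both, a shorter list by construction. The share of REX1 targets that were RNF12 WT targets became 92.9% with −log10 q of at least 2, 82.1% with at least 5, 68.6% with 20000 peaks, 90.2% at 300 bp, 94% at 3 kb, 93.1% with TSSs of coding transcripts, 91.8% with 1 TSS per gene and 94.3% without chromosomes 10 and 12. The share of RNF12 WT targets that were REX1 targets became 83.6% with −log10 q of at least 5, 59.9% with 20000 peaks, 87.3% at 300 bp, 92.2% at 3 kb, 90.8% with TSSs of coding transcripts and 89.5% with 1 TSS per gene. The Spearman correlation became 0.167 with −log10 q of at least 5, 0.131 with 20000 peaks, 0.207 at 300 bp and 0.309 ranked by −log10 q, and was positive throughout. The share of strongest peaks that overlapped became 59.6%, 66.5%, 69.4%, 47%, 60.2% and 65.1% with −log10 q of at least 5, 20000 peaks, 300 bp, 3 kb, coding TSSs and 1 TSS. It was 31.7% for an overlap of 50% of both peaks, and 34.9% of strongest summits were within 100 bp. The cause of these changes was not tested. With 1 library per list no difference between proteins has a replicate check, and how many promoters an unrelated protein would share in these cells was not tested. No paired analysis was possible because each group had 1 sample.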

Other observations

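Target class went with the number of TSS positions annotated for a gene, which widens the sequence in which a summit counts. Of the 4789 genes with 1 TSS, 35.7% (34.3% to 37%) were targets in both lists and 51.5% in neither. Of the 4502 genes with 7 or more, 91.5% (90.6% to 92.3%) were in both and 3.04% in neither. The REX1-only share was 5.22% and 2.24%, and the RNF12 WT-only share 7.62% and 3.22%.

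Split after their values were seen, keratins and keratin-associated proteins had similar single-list shares, while 13 of 53 keratins and 5 of 57 keratin-associated proteins were in both lists and 18 and 26 in neither. Of 53 keratins 16 (30.2%) were RNF12 WT only and 6 REX1 only, and of 57 keratin-associated proteins 18 (31.6%) and 8, beside 5.83% and 4.39% of all genes. The strongest RNF12 WT summit lay in a coding exon at 25 of 29 keratin targets and 22 of 23 keratin-associated protein targets, beside 31.3% of strongest RNF12 WT summits at RNF12 WT-only genes and 20.9% at genes in both lists. Their median promoter CpG observed/expected ratios were 0.26 and 0.156. *Krt72*, the highest RNF12 WT-only gene of the group, had a fold enrichment of 8.33 (percentile 97.8), 435 bp downstream of a TSS.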
